A study of Mus musculus with 25 samples.

Results

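The peaks described here are the gene-near distal open chromatin sites of αTC1 and βTC6 cells, lying more than 1000 bp and at most 10000 bp from the nearest gene start. They were taken from a table of 65053 consensus ATAC-seq peaks by the distance that the table gives for each peak, on autosomes other than 1, 6 and 14. The rule selected 6892 peaks, 10.6% of all consensus peaks, near 5120 named genes, and 3 of the peaks had no gene name. ATAC-seq inserts sequencing adapters into accessible DNA with a transposase, so that the reads counted in a peak measure how open that stretch of chromatin is.

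αTC1 (alpha TC1 clone 6) and βTC6 (beta-TC-6) are mouse cell lines derived from islet tumours, each a single line grown in culture. αTC1 stands for the glucagon-producing alpha cell and βTC6 for the insulin-producing beta cell. αTC1 was kept in Dulbecco's medium to which serum, HEPES, amino acids, albumin and 2 g/L glucose were added, and βTC6 in another catalogue version of that medium with more serum and sodium pyruvate, so line and medium cannot be told apart. There were 5 ATAC-seq libraries and 3 RNA-seq libraries of each line, and 9 ATAC-seq libraries of mixtures that held 10 to 90% αTC1 cells in steps of 10%, with 1 library each. The sources used here do not say whether libraries of a line came from separate cultures, so p-values may measure technical spread.

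Distal regulatory elements such as enhancers bind transcription factors and raise the transcription of genes at some distance, and they differ between related cell types more often than promoters do. In islets, beta cell factors such as Pdx1 and Mafa act through enhancers of the insulin genes and of one another, and alpha cells use another set that includes Irx1. Introns and the few kilobases before a gene hold many such elements. A peak is assigned here to the gene whose start is nearest, which need not be the gene that it controls. For 5160 of the 6892 peaks the nearest start in the GENCODE annotation of mm9 carried the same gene name.

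The sequences below are the central 200 bp of 7 peaks on the plus strand of mm9, shown because they lie near hormone genes, beta cell factors and the glucose transporter gene Slc2a2, or had the largest test statistics among αTC1 peaks. Capitals mark matches, on either strand, to any of 7 motif cores: CAGCTG and CAGATG (E-boxes, bound by bHLH factors such as Neurod1), TAATTA (bound by homeodomain factors), TGTTTAC (forkhead factors), TGACTCA (AP-1), GGGCGG (Sp and Klf factors) and AGGGGGC (a stretch of the CTCF motif).
Gcg peak, chr2:62311613-62311812: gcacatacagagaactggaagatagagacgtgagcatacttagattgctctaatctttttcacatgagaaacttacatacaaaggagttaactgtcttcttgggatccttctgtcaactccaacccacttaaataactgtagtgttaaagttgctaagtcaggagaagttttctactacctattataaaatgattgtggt
Slc2a2 peak, chr3:28594905-28595104: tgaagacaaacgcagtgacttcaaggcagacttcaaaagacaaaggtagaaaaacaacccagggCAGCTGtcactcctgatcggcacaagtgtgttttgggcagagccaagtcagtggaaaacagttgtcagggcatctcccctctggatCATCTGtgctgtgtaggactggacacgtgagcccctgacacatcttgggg
Insm1 peak, chr2:146043077-146043276: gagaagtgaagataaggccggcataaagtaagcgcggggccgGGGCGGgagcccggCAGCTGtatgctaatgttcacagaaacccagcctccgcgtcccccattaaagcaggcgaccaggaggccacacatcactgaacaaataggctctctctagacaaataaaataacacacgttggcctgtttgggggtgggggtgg
Ins1 peak, chr19:52346880-52347079: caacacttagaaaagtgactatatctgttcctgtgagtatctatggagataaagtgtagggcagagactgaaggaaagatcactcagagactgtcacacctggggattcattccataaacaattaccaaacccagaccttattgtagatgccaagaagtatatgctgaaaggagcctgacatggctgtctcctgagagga
Pdx1 peak, chr5:148079762-148079961: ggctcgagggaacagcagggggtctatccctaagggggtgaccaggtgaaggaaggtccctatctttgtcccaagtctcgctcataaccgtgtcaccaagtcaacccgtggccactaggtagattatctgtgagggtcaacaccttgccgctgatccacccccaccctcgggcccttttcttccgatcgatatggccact
Col8a1 peak, chr16:57760248-57760447: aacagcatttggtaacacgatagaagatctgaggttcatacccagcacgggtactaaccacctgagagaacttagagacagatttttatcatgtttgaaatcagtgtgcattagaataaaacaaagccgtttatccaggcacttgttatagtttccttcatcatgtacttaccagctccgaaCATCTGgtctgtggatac
Dffb peak, chr4:153341920-153342119: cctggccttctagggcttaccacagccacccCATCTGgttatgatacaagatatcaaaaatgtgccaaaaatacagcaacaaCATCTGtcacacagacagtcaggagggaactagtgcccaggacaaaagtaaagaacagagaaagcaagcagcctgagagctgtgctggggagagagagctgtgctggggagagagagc
The Slc2a2 window held a match to each E-box core and the Insm1 window a CAGCTG and a GGGCGG core. No match was found in the Gcg, Ins1 and Pdx1 windows, which says only that these letters are not there. The Col8a1 window held CAGATG and the Dffb window held it at 2 places.

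The reads in consensus peaks came to between 4397851 and 10374903 per library, with βTC6 replicate 2 the shallowest and βTC6 replicate 5 the deepest. Values are reads scaled by the authors with TMM, and 1 read was worth 0.0939 to 0.205 normalized reads in the pure libraries. No library had a value under 1 read at any peak, so a value of 1 read may also stand for none. In the RNA-seq libraries Gcg stood at 12113, 12267 and 14406 FPKM in αTC1 against 249, 267 and 172 in βTC6, Ins2 was under 1 FPKM in αTC1 and 23541 to 35748 in βTC6, and markers of acinar, stromal, endothelial and white blood cells were under 1 FPKM in both lines apart from Cela1, at 3.58 to 3.70 in αTC1. The ductal gene Sox9 was at 4.05 to 4.42 FPKM in αTC1 and at 0 in βTC6, and Krt19 was under 1 FPKM in both. Somatostatin (Sst), the delta cell hormone, was at 207 to 325 FPKM in βTC6 and at 0 in αTC1, while Hhex, the other delta cell marker, was at most 0.02 in βTC6 and at most 0.13 in αTC1. Ppy, the PP cell hormone, stood at 50.8, 3.7 and 23.4 FPKM in βTC6 and at most 0.1 in αTC1.

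Which of these sites were open in one line and not in the other was asked by comparing the 5 βTC6 with the 5 αTC1 libraries. A peak was called at a false discovery rate (FDR) under 5% and a log2 fold change over 2 in either direction, with limma on log2(value + 1) fitted to all 65053 peaks. Of the 6892 gene-near distal peaks, 627 (9.10%) were called more open in βTC6, where 12.9% of all peaks were. More open in αTC1 were 447 (6.49%), where 5.38% of all peaks were.

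Calls toward βTC6 were most frequent beyond 100 kb from a gene start, and calls toward αTC1 at intermediate distances. On the same chromosomes, promoter-proximal peaks up to 1 kb from a start were called in βTC6 in 5.00% and in αTC1 in 0.955% of 10684 peaks. Peaks over 10 to 100 kb away were called in 12.6% and 6.94% of 20777, and those beyond 100 kb in 21.1% and 4.07% of 12299. βTC6 calls made up 58.4% of all calls in gene-near distal peaks, against 84.0%, 64.5% and 83.9% in those 3 classes. With quantile normalization the share in gene-near distal peaks was 37.4%, so the balance between the lines depended on the scaling. This was not particular to these peaks. Over all consensus peaks that scaling gave 5655 βTC6 and 5126 αTC1 calls, against 8409 and 3502 without it. Within the gene-near range, the peaks over 1 to 2 kb away had fewer calls (7.56% and 3.82% of 1203) than those over 2 to 5 kb (9.48% and 7.22% of 2162) and over 5 to 10 kb away (9.38% and 6.95% of 3527). No test compared the classes.

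**Figure D1:**
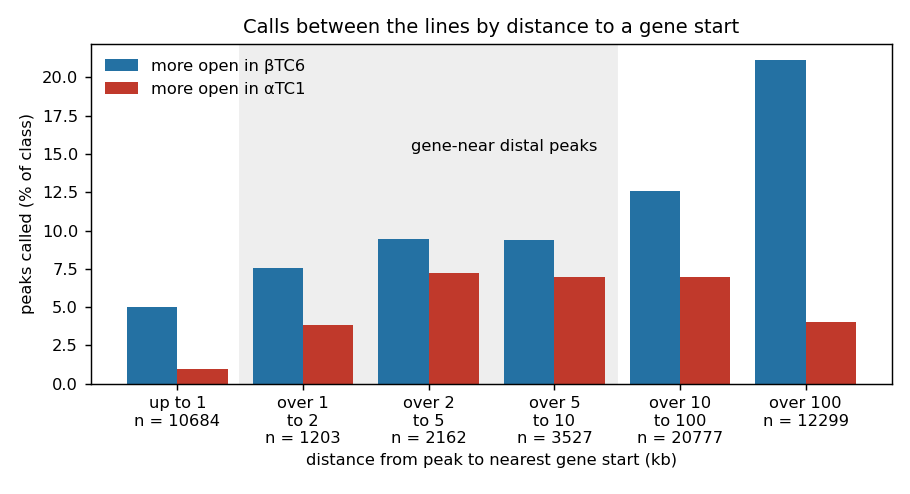
Percent of peaks called more open in βTC6 (blue) or αTC1 (red), on the vertical axis, by distance to the nearest gene start in kb, with the number of peaks under each class and gene-near distal peaks on grey. αTC1 calls ran from 0.955% up to 1 kb to 7.22% over 2 to 5 kb, and βTC6 calls reached 21.1% beyond 100 kb.

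At the FDR alone, with no fold required, 2162 gene-near distal peaks were higher in βTC6 (31.4%, against 39.9% of all peaks) and 2845 in αTC1 (41.3%, against 38.1%). Their median log2 fold change was -0.18, against 0.00 over all peaks and -0.32 for promoter-proximal peaks. Peaks in exons, introns and between genes were called at like rates, from 8.82 to 9.99% in βTC6 and from 5.59 to 7.07% in αTC1. Upstream and downstream sites gave 8.43% and 9.67% in βTC6, and 6.05% and 6.86% in αTC1. Of the 6892, 831 lay within 1 kb of a start in the GENCODE annotation of mm9, of which 5.90% were called in βTC6 and 4.57% in αTC1, against 9.54% and 6.75% of the others, a difference that was not tested.

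Chromosomes differed. On chromosome 19, 45 of 279 gene-near distal peaks were called in βTC6 and 4 in αTC1, on chromosome 11, 57 and 10 of 495, on chromosome 9, 28 and 37 of 304, and on chromosome 7, 42 and 67 of 603. As shares these were 16.1% and 1.43% on chromosome 19, 11.5% and 2.02% on 11, 9.21% and 12.2% on 9, and 6.97% and 11.1% on 7. Of all peaks, 13.8% and 3.45% were called on chromosome 19, 12.2% and 3.74% on 11, 10.8% and 8.90% on 9, and 7.14% and 8.15% on 7. On chromosome 11, 10 of the 57 βTC6 calls came from a single stretch with almost no αTC1 reads. The median log2 fold change of the gene-near distal peaks was 0.18 on chromosome 19, -0.06 on 11, -0.74 on 9 and -0.59 on 7. Over all peaks of these chromosomes it was 0.10, 0.12, -0.28 and -0.57. DNA copy number was not measured, and accessibility and copy number cannot be told apart in these values.

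Among transcription factors that make and maintain beta cells, 11 of 15 listed genes had 30 gene-near distal peaks, of which 3 were called in βTC6 and none in αTC1, near the share of all gene-near distal peaks called in βTC6 (9.10%). At the FDR alone, 11 of the 30 were higher in βTC6 and 12 in αTC1, against 31.4% and 41.3% of all gene-near distal peaks, with a median log2 fold change of 0.05. The 3 called peaks lay near Mafa, a transcription factor that drives insulin transcription in mature beta cells, Insm1, a zinc-finger factor of endocrine differentiation, and Pdx1, which is required for the pancreas and for beta cell function. With quantile normalization the log2 fold change at Insm1 (1.98) and Pdx1 (1.98) fell just under the threshold, with each chromosome centred that at Pdx1 did (1.99), and with a pseudocount of 5 both did (1.30 and 1.42). Under that pseudocount the peaks described below upstream of Slc2a2 (1.76) and at Gcg (-1.88) and Irx1 (-1.5) missed it as well.

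The Mafa peak (chr15:75586257-75587166, 8360 bp upstream, in an intron in the annotation) held 1.82, 0.983, 2.40, 0.273 and 2.02 normalized reads in αTC1 replicates 1 to 5, and 21.4, 18.9, 26.4, 24.8 and 36.4 in βTC6. The lowest βTC6 library was far above the highest αTC1 library. Its mean was 1.5 ± 0.861 against 25.6 ± 6.73 (SD over 5 libraries of each line), a log2 change of 3.46 ± 0.25 (SE; limma adjusted p = 1.95e-10). The start nearest to it in the GENCODE annotation was that of SNORA17, 3578 bp away. The peak at the start of Mafa itself was not called, with a log2 fold change of -0.46. In mixtures with 10, 50 and 90% αTC1 cells the distal peak stood at 28.2, 15.1 and 2.64. Mafa RNA was at 0.09, 0.12 and 0.57 FPKM in αTC1 and at 41.1, 46.0 and 55.7 in βTC6.

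The Insm1 peak (chr2:146043007-146043345, 4557 bp upstream, between genes and 2827 bp from the start of 4930529M08Rik in the GENCODE annotation) held 0.980, 1.40, 0.751, 1.5 and 1.01 normalized reads in αTC1 replicates 1 to 5 and 10.4, 10.3, 10.3, 10.4 and 9.11 in βTC6, a log2 change of 2.39 ± 0.20 (SE; limma adjusted p = 1.35e-09). A second peak at Insm1, 1214 bp downstream, was higher in αTC1, with a mean of 29.8 ± 5.55 (SD, n = 5) against 19.8 ± 4.70. The start-site peak of Insm1 was called in βTC6 (log2 fold change 2.21). Insm1 RNA was 7.40, 7.41 and 6.52 FPKM in αTC1 and 52.7, 45.7 and 56.8 in βTC6.

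The called Pdx1 peak (chr5:148079710-148080013, 1845 bp upstream) held 1.54, 2.67, 2.1, 1.09 and 3.47 normalized reads in αTC1 and 12.8, 12.7, 12.8, 15.4 and 17.0 in βTC6 (log2 change 2.30 ± 0.22 SE, limma adjusted p = 9.56e-09). The other two upstream peaks of Pdx1 differed less. That at 2576 bp had 9.91 ± 2.28 (SD, n = 5) in αTC1 and 21.5 ± 3.70 in βTC6, and that at 5911 bp had 33.9 ± 3.04 and 39.3 ± 1.24, with log2 fold changes of 1.05 and 0.21 that both passed the FDR. The size of the difference therefore fell with distance over these 3 sites, while both lines were open at the farthest. Pdx1 RNA had no count in any αTC1 library and 104, 120 and 110 FPKM in βTC6.

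Sites of Neurod1 and Foxa2 moved in both directions, whereas those of Pax6 and Mnx1 did not. Neurod1, a bHLH factor of endocrine cells, had 4 gene-near distal peaks that all passed the FDR: 1 was higher in βTC6 (6.69 ± 1.41 against 22.4 ± 5.66, SD, n = 5, log2 fold change 1.59) and 3 in αTC1, the largest of these at 5706 bp downstream (10.3 ± 0.681 against 2.58 ± 1.08, log2 fold change -1.71). Neurod1 RNA did not pass the FDR, with 92.1 ± 7.34 (SD, n = 3) and 82.0 ± 4.90 FPKM. Pax6, a paired homeodomain factor of all islet endocrine cells, had 7 peaks, of which 4 were higher in αTC1 and none in βTC6. Its RNA was higher in βTC6, at 72.7 ± 0.737 (SD, n = 3) and 215 ± 30.1 FPKM, a log2 change of 1.57 that passed the FDR but not the fold. Of the 3 peaks of Foxa2, 2 were higher in αTC1 and 1, upstream, in βTC6, with 51.6 ± 6.48 and 44.2 ± 4.48 FPKM of RNA. Mnx1, a homeodomain factor whose RNA was at 0.06 ± 0.0529 FPKM in αTC1 and 11.6 ± 1.74 in βTC6, had 1 peak, higher in βTC6 with a log2 fold change of 1.42.

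Genes of insulin production and secretion had 16 gene-near distal peaks near 10 of 20 listed genes, of which 4 were called in βTC6 and none in αTC1, against 9.10% and 6.49% of all gene-near distal peaks. Of the 16, 8 were higher in βTC6 at the FDR and 4 in αTC1 (31.4% and 41.3% over all), with a median log2 fold change of 0.51 (-0.18 over all). Slc2a2 encodes the glucose transporter GLUT2, and both of its gene-near peaks were called. Its upstream peak (chr3:28594456-28595553, 1820 bp) held 2.1, 2.25, 2.40, 0.819 and 2.6 normalized reads in αTC1 and 17.8, 19.5, 19.2, 20.8 and 16.9 in βTC6, a log2 change of 2.74 ± 0.20 (SE; limma adjusted p = 2.47e-10). The intronic one, 4163 bp downstream, had 2.32 ± 1.01 (SD, n = 5) and 20.4 ± 3.67. Every βTC6 library stood above every αTC1 library at both sites. Slc2a2 RNA had at most 3 counts per αTC1 library and 4.50, 5.56 and 4.23 FPKM in βTC6, at least 89.4-fold higher against a floor of 3 counts per library.

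Ins1 is one of the mouse insulin genes. Its gene-near distal peak (chr19:52346771-52347187, 8166 bp downstream, between genes) held 0.7, 0.702, 0.451, 0.955 and 0.433 normalized reads in αTC1 and 6.82, 7.18, 5.27, 6.14 and 11.2 in βTC6. The αTC1 values rested on 3 to 7 reads per library. On the log2 scale βTC6 was higher by 2.31 ± 0.21 (SE; limma adjusted p = 5.55e-09), and the start-site peak of Ins1 was also called, at 4.23. With quantile normalization (1.87) or a pseudocount of 5 (1.11) the distal peak missed the fold threshold. Ins1 RNA had no count in αTC1 and 2389, 2013 and 1599 FPKM in βTC6.

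G6pc2 encodes the islet glucose-6-phosphatase subunit. Both of its peaks were higher in βTC6 at the FDR, from 5.55 ± 1.14 to 14.5 ± 2.62 (SD, n = 5) at 2880 bp and from 2.57 ± 0.633 to 12.6 ± 3.07 at 8370 bp downstream, without reaching the fold threshold.

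Syt7 encodes a calcium sensor of exocytosis, and its called peak (chr19:10468534-10468803, in an intron) had 0.280, 1.26, 1.05, 1.36 and 1.01 normalized reads in αTC1 and 9.80, 5.13, 8.65, 11.3 and 7.04 in βTC6 (log2 change 2.22 ± 0.24 SE, limma adjusted p = 5.01e-08). With quantile normalization (1.79) or a pseudocount of 5 (1.14) it was not called. The start nearest to it in the GENCODE annotation was that of Gm17289, 2443 bp away. Another Syt7 peak, 3441 bp upstream, was higher in αTC1, with 14.9 ± 1.46 (SD, n = 5) against 7.03 ± 2.84. Syt7 RNA was 65.7 ± 3.68 (SD, n = 3) FPKM in αTC1 and 47.7 ± 7.17 in βTC6, so the called peak and the RNA had opposite signs.

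Alpha cell genes had 12 gene-near distal peaks near 5 of 15 listed genes, of which 3 were called in αTC1 and none in βTC6, where 6.49% and 9.10% of all gene-near distal peaks were. Of the 12, 8 were higher in αTC1 at the FDR and 2 in βTC6 (41.3% and 31.4% over all), with a median log2 fold change of -0.86. Gcg encodes glucagon, and 2 of its 3 peaks were called. The first (chr2:62311270-62312154, between genes, 9998 bp downstream and so just within the distance limit) held 29.7, 24.7, 26.5, 30.0 and 26.4 normalized reads in αTC1 and 5.54, 3.49, 3.92, 3.85 and 2.44 in βTC6, a log2 change of -2.58 ± 0.16 (SE; limma adjusted p = 3.01e-11). The second, 9203 bp downstream, had 7.05 ± 1.19 (SD, n = 5) in αTC1 and 0.843 ± 0.458 in βTC6. The peak at the Gcg start was called in αTC1 as well (-2.44), whereas the third distal one, 1445 bp upstream, was open in both lines at 27.7 ± 6.63 and 19.9 ± 3.10. In the mixtures with 10, 50 and 90% αTC1 cells the first Gcg peak stood at 7.13, 17.5 and 28.9.

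Irx1, a homeodomain factor of alpha cells, had 3 gene-near distal peaks that were all higher in αTC1. The called one (chr13:72095886-72096297, 5079 bp downstream, in an exon) held 16.2, 11.2, 13.8, 18.8 and 7.94 normalized reads in αTC1 and 1.85, 0.615, 1.62, 1.43 and 1.69 in βTC6 (log2 change -2.56 ± 0.24 SE, limma adjusted p = 8.81e-09). Its neighbours 6987 bp downstream and 4532 bp upstream changed by -1.28 and -1.37 on the log2 scale, and the start-site peak, which was not called, by -0.58. Irx1 RNA was 59.9, 60.6 and 75.6 FPKM in αTC1 and 4.47, 4.06 and 7.55 in βTC6. Ttr, which encodes transthyretin, had 1 peak higher in αTC1, 1 higher in βTC6 and 1 that did not pass the FDR.

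**Figure D2:**
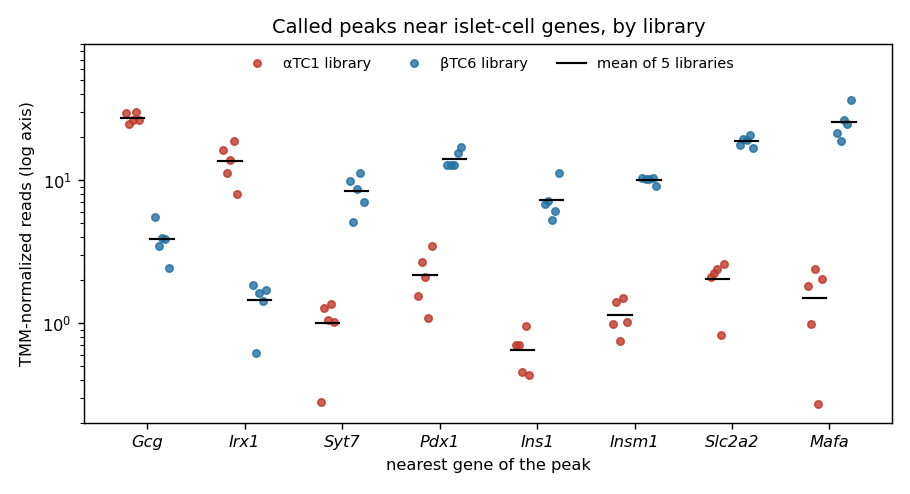
TMM-normalized reads (log axis) in the 5 αTC1 libraries (red) and 5 βTC6 libraries (blue) at the called gene-near distal peak with the largest test statistic of each listed gene, black lines giving the means. The αTC1 libraries are the higher ones at Gcg and Irx1 and the βTC6 libraries at the other 6 genes. The lines do not overlap at these peaks, which the call had already selected for a large difference.

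No peak was called in the other two lists. Genes normally silenced in beta cells had 5 gene-near distal peaks near 5 of 11 listed genes, and all 5 passed the FDR as higher in αTC1, as 41.3% of all gene-near distal peaks did, with a median log2 fold change of -0.998. Their RNA did not all follow: Slc16a1, the lactate transporter gene, and Smad3 and Pdgfra were called higher in αTC1, while Igfbp4 and Oat were called higher in βTC6. The Oat peak had 5.90 ± 1.5 (SD, n = 5) normalized reads in αTC1 and 1.75 ± 0.866 in βTC6, where Oat RNA had 0.04 ± 0.02 (SD, n = 3) and 66.2 ± 17.1 FPKM. Genes of delta, PP and epsilon cells had 4 peaks near 4 of 6 genes. At the FDR 2 were higher in αTC1 and 1 in βTC6, against 41.3% and 31.4% of all gene-near distal peaks. Their median log2 fold change was -0.35 (-0.18 over all). The Sst peak was among those higher in αTC1 (20.5 ± 1.91 against 11.7 ± 2.34, SD, n = 5), although Sst RNA had no count there.

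The 5 peaks with the largest βTC6 statistics lay near Flrt2, Adgrl3, Lor, Oxr1 and Slc6a19. Flrt2 and Adgrl3 encode a pair of adhesion proteins that bind each other across cells, a leucine-rich repeat membrane protein and a latrophilin. The Flrt2 peak (chr12:96933177-96934324) held 2.94, 3.93, 2.55, 2.87 and 2.89 normalized reads in αTC1 and 69.6, 62.6, 60.7, 64.8 and 70.6 in βTC6 (log2 change 4.05 ± 0.12 SE, limma adjusted p = 2.30e-15). It lay 3315 bp from the start in the table but 183 bp from a Flrt2 start in the GENCODE annotation, and the Adgrl3 peak (chr5:81448550-81449604) lay 86 bp from a start of the same gene, named Lphn3 there. At Adgrl3 the means were 8.65 ± 0.732 (SD, n = 5) and 83.6 ± 4.91. RNA of both genes was called higher in βTC6, Flrt2 at 0.05 ± 0.0608 (SD, n = 3) and 1.79 ± 0.380 FPKM and Adgrl3 at 0.167 ± 0.0987 and 9.76 ± 2.64.

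Lor, which encodes the skin protein loricrin, had 3.29 ± 0.978 (SD, n = 5) normalized reads in αTC1 and 67.1 ± 5.01 in βTC6. Its RNA was too low to be tested. Oxr1, an oxidation resistance gene, had 16.0 ± 1.47 (SD, n = 5) and 87.5 ± 4.52, with RNA at 1.85 ± 0.473 (SD, n = 3) and 20.4 ± 3.26 FPKM. Slc6a19, a neutral amino acid transporter gene, had 3.08 ± 0.577 (SD, n = 5) and 44.1 ± 0.942, and its RNA was also called higher in βTC6.

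The 5 largest αTC1 statistics belonged to peaks near Col8a1, Dffb, 9430041J12Rik, Klf3 and Mir130a. The Col8a1 peak (chr16:57759854-57760840, 5497 bp upstream, between genes) held 80.7, 78.8, 78.3, 76.7 and 86.8 normalized reads in αTC1 and 6.96, 4.92, 6.35, 4.14 and 6.01 in βTC6 (log2 change -3.62 ± 0.12 SE, limma adjusted p = 6.53e-15). Col8a1, a collagen gene, was under 1 FPKM in every RNA library of both lines. The Dffb peak (chr4:153341638-153342401, in an intron) had 48.2 ± 3.9 (SD, n = 5) and 2.06 ± 0.611, yet RNA of this DNA fragmentation factor was 16.5 ± 0.310 (SD, n = 3) and 18.7 ± 4.67 FPKM. Klf3 had 48.7 ± 2.78 (SD, n = 5) and 2.2 ± 0.719, with RNA of this repressor at 13.3 ± 0.902 (SD, n = 3) and 5.90 ± 0.735 FPKM, a difference that passed the FDR but not the fold. Mir130a had 78.5 ± 4.65 (SD, n = 5) and 2.21 ± 1.22. The 9430041J12Rik peak lay 110 bp from a start of Ttyh1 in the GENCODE annotation. Of these nearest genes Dffb and Klf3, expressed in both lines, could be tested in RNA and neither was called. All 4 tested βTC6 genes were called, but Flrt2, Adgrl3 and Slc6a19 were expressed enough to test only in βTC6. The 2 sets of genes therefore cannot be compared by these counts.

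Of the 1301 genes with more than 1 gene-near distal peak, 83 had at least 2 called. In 42 of the 83 all called peaks were more open in βTC6, in 36 all were more open in αTC1, and in 5 they went both ways. The 4 called peaks assigned to Ethe1, a mitochondrial sulfur dioxygenase gene, lay between genes on chromosome 7 from 25363795 to 25369066. No αTC1 library held more than 4 reads at any of them. The widest (chr7:25367793-25369066) held 0.280, 0.140, 0.601, 0.136 and 0.144 normalized reads in αTC1 and 40.9, 48.2, 43.6, 38.8 and 23.7 in βTC6. The other three had βTC6 means of 4.91 ± 2.01, 23.9 ± 5.93 and 6.5 ± 1.56 (SD, n = 5), at least 11.5, 56.0 and 15.2-fold above a floor of 3 reads per library. Ethe1 RNA was 10.1 ± 0.358 (SD, n = 3) FPKM in αTC1 and 17.6 ± 1.46 in βTC6 and was not called.

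Ppp1r1a, which encodes a protein phosphatase inhibitor abundant in beta cells, had 3 called peaks upstream, at 1456, 2486 and 4579 bp. They had 0.705 ± 0.249, 0.539 ± 0.183 and 1.11 ± 0.324 (SD, n = 5) normalized reads in αTC1, and 11.2 ± 1.67, 10.6 ± 1.25 and 13.2 ± 2.33 in βTC6. Ppp1r1a RNA had at most 2 counts per αTC1 library and 180, 191 and 201 FPKM in βTC6, at least 1919-fold higher. Papss2, an enzyme of sulfate activation, also had 3 called peaks, the largest (chr19:32678069-32679621) with 3.05 ± 1.0 (SD, n = 5) and 83.1 ± 15.6, and RNA at 0.117 ± 0.0404 (SD, n = 3) and 219 ± 22.9 FPKM. The GENCODE annotation places the nearest Papss2 start 15650 bp or more from these sites. Sgms1 and Fgf12 also had 3 each. Sgms1, a sphingomyelin synthase gene, had called intronic peaks, with log2 fold changes of 2.11, 2.66 and 2.16, but its RNA was not called (7.57 ± 0.844 and 11.5 ± 1.39 FPKM, SD, n = 3).

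Ano1, which encodes a calcium-activated chloride channel, was the only gene with 3 gene-near distal peaks called in αTC1. The largest (chr7:151929112-151929825, in an intron) held 19.2, 19.7, 22.5, 16.2 and 27.4 normalized reads in αTC1 and 1.28, 1.03, 1.89, 0.713 and 0.282 in βTC6. The other two had 8.04 ± 1.83 and 15.7 ± 1.90 (SD, n = 5) in αTC1 against 0.921 ± 0.711 and 0.732 ± 0.485. With each chromosome centred on its own median the first of these was no longer called (-1.73 on the log2 scale, from -2.29), which left 2 called peaks. Ano1 RNA was 2.58, 2.40 and 5.25 FPKM in αTC1 and had at most 1 count per βTC6 library, at least 109-fold lower. Another 36 genes had 2 αTC1 calls, and of those Pex5l, Mtus1 and C130071C03Rik had the largest summed statistics. Pex5l modulates pacemaker channels and its peaks had 36.9 ± 3.45 and 37.3 ± 4.54 (SD, n = 5) in αTC1 against 5.17 ± 1.44 and 4.66 ± 1.40, with RNA at 101 ± 4.73 (SD, n = 3) and 23.7 ± 1.25 FPKM.

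One stretch of chromosome 11 stood apart. From 109037675 to 111177459, 2140 kb, all 54 consensus peaks were at the lowest value, 1 read, in every αTC1 library. Of these 54, 52 were called in βTC6. It held 11 gene-near distal peaks, of which 10 were called, near Amz2, Wipi1, Prkar1a, 1700012B07Rik, 1700023C21Rik, Abca5, Kcnj16 and Kcnj2. Over the 11, βTC6 means ran from 2.54, at the uncalled peak near 1700096J18Rik, to 20.9 normalized reads. The Wipi1 peak (chr11:109477697-109478442) held 0.140, 0.140, 0.150, 0.136 and 0.144 in αTC1, each at that lowest value. In βTC6 it held 21.9, 17.6, 26.5, 16.8 and 21.8, at least 49.0-fold higher. It lay 435 bp from the start of another annotated transcript.

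Of the genes in this stretch, 4 were expressed enough to test, all through their βTC6 RNA. With no more than 1 count in any αTC1 library, all 4 were called, an outcome that the expression filter made near certain. Prkar1a, a regulatory subunit of protein kinase A, had at most 1 count per αTC1 library and 545, 584 and 435 FPKM in βTC6, at least 10875-fold higher. Wipi1, an autophagy gene, had no count in αTC1 and 92.9, 79.2 and 60.6 FPKM in βTC6. Amz2 and Abca5 had no count in αTC1 and 44.5 to 53.5 and 11.01 to 15.7 FPKM in βTC6. A loss of DNA and a closed stretch cannot be told apart in these files. Without the gene-near distal peaks in such stretches, 617 were called in βTC6 and 447 in αTC1, in a comparison added after the data were seen.

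How the level of these sites went with cell numbers was read in the mixtures, which had no part in the calls. The mean over the 627 βTC6 peaks was 1.66 ± 0.0756 (SD, n = 5) normalized reads in αTC1 and 15.4 ± 0.569 in βTC6. It was 2.42, 3.48, 4.77, 5.84, 7.96, 9.21, 9.97, 12.3 and 14.5 in the mixtures with 10 to 90% βTC6 cells. The value rose at every step. For the 447 αTC1 peaks the pure lines had 19.9 ± 1.08 and 2.64 ± 0.390, and the mixtures with 10 to 90% αTC1 cells had 4.47, 6.69, 9.39, 10.1, 11.7, 13.8, 14.4, 17.4 and 19.2, again higher at every step. The mean of the 5818 uncalled peaks stayed between 10.5 and 12.9 normalized reads in the pure lines and all 9 mixtures.

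Over the 9 mixtures, level and cell percentage had a Pearson r of 0.993 for βTC6 peaks and 0.994 for αTC1 peaks, each with an adjusted exact permutation p = 5.51e-06 over the 2 sets, two-sided, the smallest that 9 mixtures allow. Spearman's rho was 1 for both, with the same p. A rise was near certain in advance, since the peaks were chosen for differing between the lines that were mixed. These p-values therefore do not test whether the sites follow composition. Without the mixtures at 10 and 90%, r was 0.994 and 0.988. On a scale from 0 in one pure line to 100% in the other, the mixture with equal parts stood at 45.7% for βTC6 peaks and at 52.3% for αTC1 peaks. At 20% of the line the values were 13.3% and 23.4%. The βTC6 sites read below the stated percentage in every mixture but that with 90% βTC6 cells, and the αTC1 sites above it in every mixture but that with 70% αTC1 cells, where they stood at 68.1%.

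**Figure D3:**
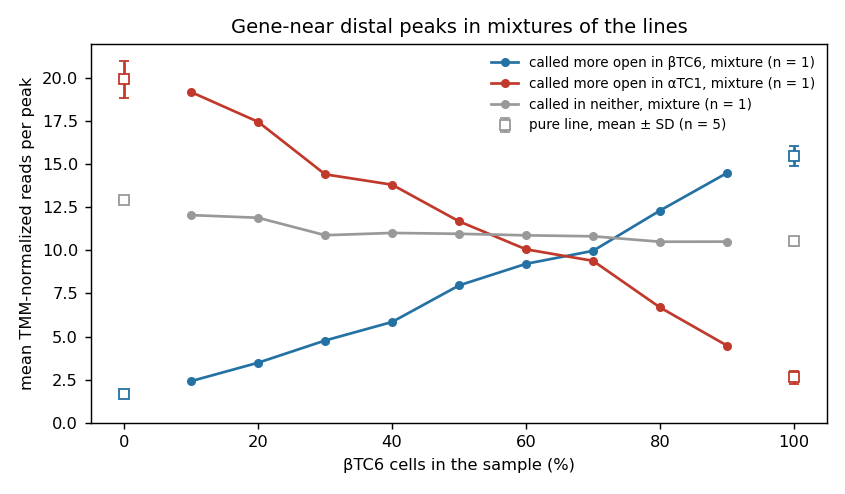
Mean TMM-normalized reads per peak (vertical axis) against the percent of βTC6 cells in the sample, for gene-near distal peaks called more open in βTC6 (blue), in αTC1 (red) or in neither (grey); filled points are single mixtures and open squares pure lines (mean ± SD, n = 5). The blue line climbs from 2.42 to 14.5, the red line falls from 19.2 to 4.47, and the grey mixtures stay between 10.5 and 12.04.

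The share of reads that fell in these sites was compared between the lines as well. Of the reads in peaks of the same chromosomes, gene-near distal peaks held 10.7, 10.6, 10.7, 9.77 and 10.1% in αTC1 replicates 1 to 5 and 10.1, 9.80, 10.3, 9.75 and 9.30% in βTC6. The 2 groups overlapped. In both lines replicates 4 and 5 stood lower than replicates 1 to 3. The labels give no batch, but the study's supplement computed the mitochondrial read share differently for these replicates, which are called replicate sets here. Whether the 2 sets were processed apart is not known here. The means were 10.4% ± 0.419 and 9.85% ± 0.378 (SD, n = 5), and the difference did not pass an exact two-sided permutation test (p = 0.0952, 0.111 adjusted over the 4 distance classes). No class passed this test after adjustment. Within replicates 1 to 3 every αTC1 library (10.6 to 10.7%) lay above every βTC6 library (9.80 to 10.3%), a difference of -0.599 points, βTC6 minus αTC1, and within replicates 4 and 5 the same held, with -0.41. A permutation test added after the data were seen permuted the line within these 2 replicate sets. Its exact two-sided p was 0.0167, the smallest that its 120 permutations allow, and 0.0222 adjusted over the 4 classes. Promoter-proximal peaks (lower in βTC6 by -5.84 and -2.26 points in the 2 sets) had the same p, with larger differences. So did those beyond 100 kb (higher by 5.74 and 2.28), while peaks over 10 to 100 kb away did not pass (exact permutation p = 0.167). With reads in all consensus peaks as the denominator the gene-near difference was -0.223 points, with an exact permutation p of 0.294. With the line permuted within replicate sets this p was 0.1, so the call depended on both the denominator and the grouping.

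The nearest genes of gene-near distal peaks were then followed in RNA-seq. Of 4490 such genes found in the RNA table, 2989 were expressed enough to test. With edgeR's quasi-likelihood test at the same thresholds, 433 (14.5%) were called higher in βTC6, against 10.2% of all 12195 genes tested, and 164 (5.49%) in αTC1, against 4.08%. Of the 356 βTC6-called peaks with a tested gene, the gene was called higher in βTC6 for 142 (39.9%), in αTC1 for 7 (1.97%) and in neither for 207. Of the 286 αTC1-called peaks, the gene was called higher in αTC1 for 61 (21.3%), in βTC6 for 8 (2.80%) and in neither for 217. Beside the 3509 uncalled peaks, 13.6% of genes were called in βTC6 and 5.61% in αTC1. Over all consensus peaks the same-direction shares were 37.1% and 19.6%.

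Taking for each gene the peak with the largest statistic, peak and RNA log2 fold changes had a Pearson r of 0.40 and a Spearman rho of 0.39 across 2989 genes. For the 564 genes where that peak was called they were 0.50 and 0.55. These describe genes within the same 16 libraries, which are not independent replicates.

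**Figure D4:**
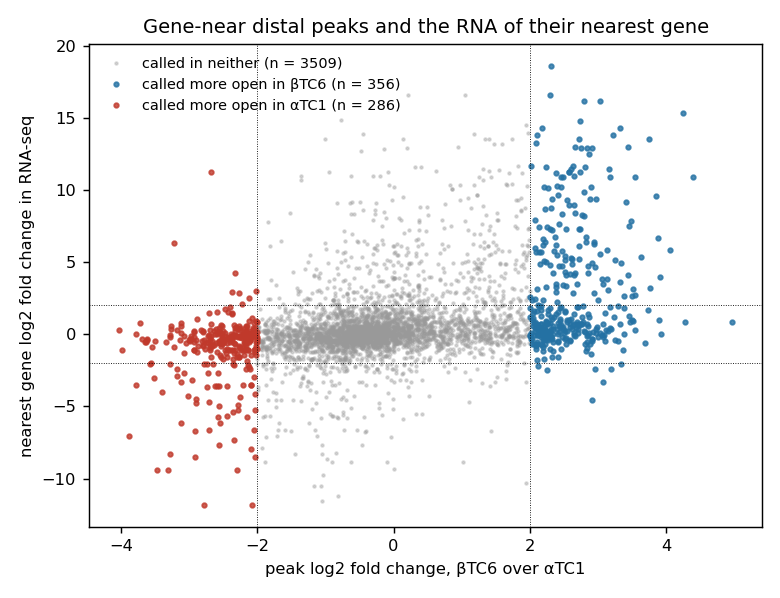
Log2 fold change of the nearest gene in RNA-seq (vertical axis) against that of the gene-near distal peak (horizontal axis), both βTC6 over αTC1, with 1 point per peak and dotted lines at -2 and 2. Blue points are the 356 peaks called more open in βTC6, red the 286 in αTC1 and grey the 3509 in neither; many called peaks lie near an RNA change of 0.

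Promoter peaks of the same genes were set beside the distal sites and the RNA. A peak within 1 kb of the start of the same gene existed for 364 of the 627 βTC6-called peaks, and it was called in βTC6 in 87 (23.9%) and uncalled in 273, where beside uncalled distal peaks 5.21% of 3607 promoter peaks were called in βTC6. For αTC1 it existed for 281 of 447 and was called in αTC1 in 12 (4.27%) and uncalled in 265, where 1.05% of the 3607 were called in αTC1. Where the promoter peak was called the same way and the gene was tested, the gene was called the same way for 63 of 67 βTC6 peaks and 10 of 10 αTC1 peaks. Where the promoter peak was not called, this was so for 49 of 229 (21.4%) and 40 of 235 (17.0%). Beside uncalled distal sites the gene was called with the promoter for 106 of 120 (88.3%) in βTC6 and 19 of 28 (67.9%) in αTC1, and where the promoter was not called the gene was called in βTC6 for 8.76% and in αTC1 for 4.97% of 2819 sites. No test compared these shares. Among called distal sites with a promoter peak, 75.0% of those of βTC6 and 94.3% of those of αTC1 stood beside a promoter that was not called, and 93.7% of uncalled distal sites did.

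Genes with at least 5 FPKM in every library of the higher line and a distal site called the same way were ranked by fitted RNA change. The 5 largest in βTC6 were Ins1, Pdx1, Prkar1a, Wipi1 and Tmem215. All 5 had at most 1 count per αTC1 library, so the fitted values are imprecise. Against a floor of 3 counts per library, Ppp1r1a (at least 1919-fold) stood above Wipi1 (1658) and Tmem215 (1115). Tmem215, a membrane protein gene, had 2.01 ± 0.597 (SD, n = 5) and 18.9 ± 1.86 normalized reads at its peak, with no RNA count in αTC1 and 29.5 ± 1.53 FPKM (SD, n = 3) in βTC6. In αTC1 the 5 largest fitted changes were those of Ntn4, Zfp532, Nr2f1, Sytl2 and Kbtbd11. The peak in Ntn4, which encodes the secreted protein netrin-4, held 7.14, 6.18, 7.06, 10.5 and 7.66 normalized reads in αTC1 and 0.142, 0.205, 0.811, 0.143 and 0.0939 in βTC6. Ntn4 RNA was 33.5, 33.0 and 31.1 FPKM in αTC1 and had at most 2 counts per βTC6 library, at least 997-fold lower. Nr2f1, the orphan nuclear receptor COUP-TFI, had 20.1 ± 2.70 (SD, n = 5) and 1.35 ± 1.19 at its peak. That peak lay 767 bp from the start of A830082K12Rik in the GENCODE annotation. Nr2f1 RNA was 9.90 ± 1.78 (SD, n = 3) FPKM in αTC1, at least 193-fold more than in βTC6. Sytl2, a Rab27 effector of granule exocytosis, had 8.29 ± 1.73 (SD, n = 5) and 1.26 ± 0.801, and 40.7 ± 2.03 (SD, n = 3) and 0.157 ± 0.0208 FPKM. In the GENCODE annotation the nearest start, that of Sytl2, lay 14531 bp from this peak, outside the distance range. The Sytl2 peak changed by -2.09 on the log2 scale, and its call was lost without βTC6 replicate 4 (-1.95) or replicate 5, where it came just short of the fold threshold, in replicates 1 to 3 alone (-1.85) and with each chromosome centred (-1.53). For the Zfp532 and Kbtbd11 peaks the log2 fold changes were -2.91 and -2.56.

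Opposite pairs were few. The 3 with the largest peak statistics were Fam129c, Gsdmd and Gm4262. The Fam129c peak (chr8:74126566-74127319, in an intron) held 2.1, 1.97, 1.5, 1.64 and 1.88 normalized reads in αTC1 and 25.1, 17.4, 26.1, 31.8 and 24.7 in βTC6, yet Fam129c RNA was 5.42, 4.49 and 5.80 FPKM in αTC1 and 1.18, 1.05 and 0.890 in βTC6. This peak lay 5398 bp from the start in the table but 692 bp from a Fam129c start in the GENCODE annotation. The peak within 1 kb of the table's start was called in αTC1, with a log2 fold change of -2.47. Gsdmd, which encodes the pore-forming protein gasdermin D, had 47.4 ± 4.61 (SD, n = 5) and 8.49 ± 2.08 normalized reads at its peak, and RNA at 0.680 ± 0.0900 (SD, n = 3) and 4.96 ± 0.449 FPKM. Gm4262 had 26.8 ± 2.65 (SD, n = 5) and 2.08 ± 0.852, and 0.270 ± 0.0608 (SD, n = 3) and 21.3 ± 8.74 FPKM.

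Motif cores differed between the sets. CAGATG, an E-box, was found in the central 200 bp of 38.5% of αTC1-called, 19.6% of βTC6-called and 23.8% of uncalled gene-near distal peaks, against 23.2% of all consensus peaks. CAGCTG was found in 33.6%, 17.5% and 20.1%, against 17.2%. TAATTA, the homeodomain core, ran the other way, with 2.68% of αTC1-called, 11.5% of βTC6-called and 5.19% of uncalled peaks, against 6.93%. AGGGGGC was in 2.91% and 3.19% of called and in 7.30% of uncalled peaks, against 5.33%. The forkhead core was in 9.84%, 6.70% and 5.90%, and the AP-1 site in 11%, 7.34% and 8.35%, against 6.31% and 7.63% of all peaks. GGGCGG, which 52.5% of promoter-proximal peaks held, was in 7.38%, 12.3% and 13.7%, against 15.5% of all peaks.

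Median GC content of the windows was 50.5% in αTC1-called, 47.0% in βTC6-called and 51.0% in uncalled peaks, and within each of 3 GC classes both E-box cores were more frequent in αTC1-called than in βTC6-called peaks and TAATTA less frequent. Uncalled peaks did not keep their place, since in the lowest class CAGCTG was in 13.9% of uncalled, 14.6% of βTC6-called and 25.8% of αTC1-called peaks. In the lowest class, up to 47.0% GC, CAGATG was in 35.8% of αTC1-called and 21.0% of βTC6-called peaks and TAATTA in 4.64% and 16.2%. In the middle class CAGATG was in 45.3% and 24.8% and TAATTA in 2.94% and 9.15%. In the highest, above 54.5%, CAGCTG was in 48.4% and 21.9%. These are counts of letters, and no test compared the sets.

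**Figure D5:**
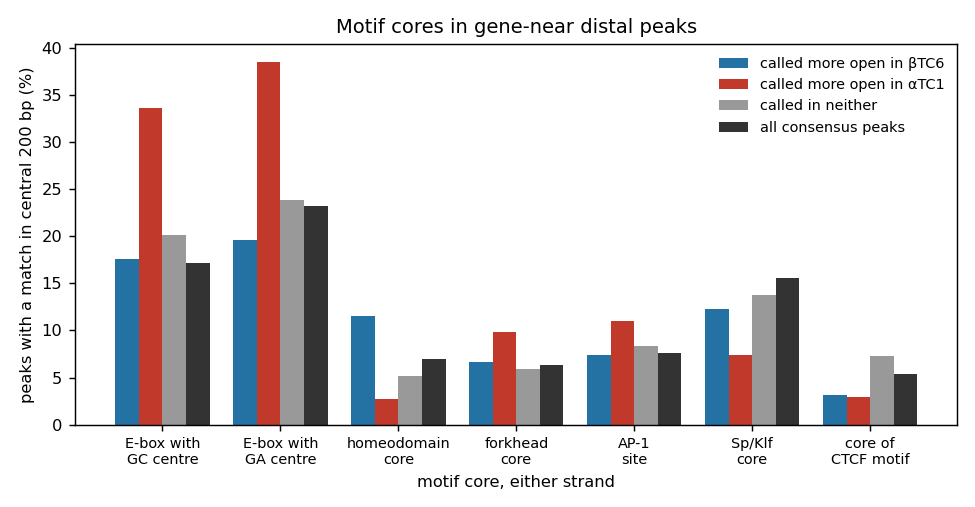
Percent of peaks whose central 200 bp hold each motif core on either strand (vertical axis), for gene-near distal peaks called more open in βTC6 (blue), in αTC1 (red) or in neither (grey), and for all consensus peaks (black). Both E-box cores are most frequent in the αTC1-called set (33.6% and 38.5%) and the homeodomain core in the βTC6-called set (11.5%).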

How the data were processed

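ATAC-seq of 19 and RNA-seq of 6 libraries were used. The authors trimmed ATAC-seq reads (Trimmomatic 0.32), aligned them to mm9 (BWA 0.7.9a), removed duplicates (Picard 1.95), called peaks per library (MACS 2.1.0) and kept peaks found in at least 2 libraries (DiffBind 2.2.5). The deposited ATAC-seq values are a TMM-scaled signal of reads per consensus peak, and all values were multiples of 1 read within 0.01 read. HOMER 4.6 gave the nearest gene. For RNA-seq the authors trimmed reads (Trim Galore 0.40) and obtained expected counts and FPKM values per gene from RSEM 1.2.12 with Bowtie 2 on Ensembl transcripts. Columns in which the authors classed peaks by their own comparison of the lines were not used.

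All 65053 peaks were fitted with limma 3.58.1 (with trend) on log2(value + 1), and 12195 genes of at least 1 FPKM in every library of at least 1 line, spike-ins left out, with edgeR 4.0.16 quasi-likelihood on rounded expected counts. Calls needed a Benjamini-Hochberg FDR under 5% and a log2 change over 2. Named peaks were those called near listed genes, the 5 with the largest statistic in each direction, the 4 genes with most called peaks in each direction, the 5 largest RNA changes with a peak called the same way in each direction, and the 3 largest opposite pairs. Ties for most called peaks were broken by summed statistics, a choice made after the data were seen. Members and gene lists were chosen with earlier results of these data known. On simulated data, 163 of 200 peaks and 200 of 200 genes with a log2 change of 3 were called, with 0 false calls. The changes were planted only in well-covered features, a single dispersion was used, and all other features were left unchanged. These counts are therefore not error rates of the real data. Sequences came from the mm9 genome (NCBIM37) and annotations from GENCODE. Figures were drawn with matplotlib 3.10.9. Some items of the gene lists are counted but not reported here by name, and some peak sequences are not reported here.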

Additional observations from a re-analysis of the deposited data

Results flagged for a closer look

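Among 48 sets of 5 libraries of 1 line at a peak, 3 held a library far from the other four by Dixon's test at 95%, and chance flags about 1 in 20. At the Slc2a2 upstream peak αTC1 replicate 4 was lowest, at 0.819 normalized reads, with the next at 2.1. At the Insm1 upstream peak βTC6 replicate 5 was lowest, at 9.11, with the next at 10.3. At the Flrt2 peak αTC1 replicate 2 was highest, at 3.93, with the next at 2.94. At each of these peaks the libraries of the 2 lines did not overlap.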

How the results depend on the processing

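The fold threshold and the scale set how many gene-near distal peaks were called. With a pseudocount of 5 there were 81 in βTC6 and 77 in αTC1, with edgeR on recovered reads 1028 and 701, with a fold threshold of 1 on the log2 scale 1516 and 1477, and with none 2162 and 2845. Quantile normalization gave 390 and 653. The other settings stayed within 1.5 times: leaving out 1 library gave 620 to 639 and 412 to 469, replicates 1 to 3 alone 621 and 383, and replicates 4 and 5 alone 662 and 562. No peak was called in opposite directions under any of these. The same-direction pairs of peak and gene numbered 395 of 833 and 267 of 957 with a fold threshold of 1, and 28 of 50 and 15 of 50 with a pseudocount of 5. Without the filter on low RNA values 725 nearest genes were called in βTC6 and 242 in αTC1, and leaving out 1 library gave 426 to 450 and 158 to 167. The difference in read share ranged from -0.674 to -0.386 percentage points when 1 library was left out. Without αTC1 replicate 4 it was -0.674, with an exact permutation p = 0.0476 before adjustment. Without the 5 peaks with the highest level, a choice made after the data were seen, it was -0.471. With all consensus peaks as the denominator it was -0.223 (exact permutation p = 0.294, and 0.1 within replicate sets, the latter added after the data were seen). With the line permuted within replicate sets, also added then, the difference of -0.524 had an exact permutation p = 0.0167, against 0.0952 without. In replicates 4 and 5 alone the difference was -0.41. The cause of these changes was not tested.

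Of 1063 repeats over 51 named peaks, 1018 kept the call, 45 lost it and 0 reversed. Of the losses, 28 were under the pseudocount of 5 and 6 under quantile normalization (Insm1, Ins1, Pdx1, Syt7 and a peak each of Ethe1 and Sgms1). The C130071C03Rik upstream peak (-2.04) was lost without αTC1 replicate 3 (-1.97) or βTC6 replicate 2 (-1.95). With each chromosome centred 3 were lost, at Pdx1 (1.99), Ano1 (-1.73) and Sytl2 (-1.53).

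Replicate numbers paired no libraries: correlations of same-numbered deviations ran from -0.0019 to 0.069 in ATAC-seq and from -0.0401 to 0.0246 in RNA-seq, and not every library correlated best with its own number. With the replicate number as a block, 627 and 447 peaks and 432 and 167 nearest genes were called. In 25 βTC6-called and 4 αTC1-called peaks no library of the lower line held more than 3 reads, so the size of their folds is imprecise.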

Other observations

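The gene-near distal peaks with the highest level were not those that differed most. The highest lay near Pisd-ps2 on chromosome 17, with a mean of 529 ± 56.5 (SD, n = 5) normalized reads in αTC1 and 370.1 ± 45.0 in βTC6. Those near Crlf2, Mir101c, Large and Txndc11 followed, and all 5 were higher in αTC1 at the FDR without being called. A run of 4 consecutive gene-near distal peaks on chromosome 7, from 71300440 to 72014807 near Trpm1, Fan1 and Ndnl2, was called in αTC1, and 12 of the 28 consensus peaks over that distance were called the same way.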
